A study of Arabidopsis thaliana with 26 samples.

Results

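The mitochondrial genome of Arabidopsis thaliana was represented by 61 of the 16384 probe sets on the tables, chosen as every row whose locus code starts with ATMG. Signal was measured on 26 microarrays of RNA from seedling roots. GFP-positive cells were sorted from seedlings in which the SCARECROW (SCR) promoter, active in the endodermis and the quiescent centre (QC), drives green fluorescent protein. They were taken after 0 h (3 arrays) and after 24, 48, 72 and 96 h (2 arrays each) on medium with 1 µM of the synthetic auxin 2,4-D. QC cells were sorted with GFP under the WOX5 promoter from jkd plants, from wild type plants grown with them and from a separate wild type harvest (3 arrays each). Whole excised meristems, which were not sorted, came from jkd and from wild type plants (3 arrays each). The sample descriptions give a root tip of 250 µm for every array of the time series and no such length for the other groups. The seedlings of the time series were 2 days past germination when treatment began, and those of the QC and meristem groups were 3 days past germination. The allele is given as jkd-4 for the QC and the wild type as Col-0, while the meristem labels say only jkd and WT. JACKDAW (JKD), the gene lost in jkd, encodes a transcription factor with zinc fingers that acts in ground tissue. No untreated cells were taken at the later times, so in every change against 0 h the 2,4-D treatment cannot be told apart from seedling age.

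A plant mitochondrion keeps a small genome of its own. It encodes a few subunits of the respiratory complexes and of ATP synthase, part of the mitochondrial ribosome, proteins that attach haem to cytochrome c, and many open reading frames with no assigned role. Nuclear genes encode the other subunits of the same complexes, and nuclear proteins transcribe, splice and edit the mitochondrial RNAs. Neither the files nor the RefSeq gene table pair ATMG codes with gene names (0 of the 61 codes were in that table), so the names of 13 members rest on established locus nomenclature. The symbols of all 13 are on the mitochondrial chromosome of that table. The 13 are 7 probe sets of complex I, the NADH dehydrogenase (nad4, nad4L, nad5 with 2 probe sets, nad6, nad7 and nad9), 2 of complex IV, the cytochrome c oxidase (cox1 and cox2), and 1 each of ATP synthase (atp4), cytochrome c maturation (ccmB), the ribosome (rpl16) and protein transport (mttB). The other 48 are open reading frames given here by their codes alone. Arabidopsis chromosome 2 carries a large copy of mitochondrial DNA, and signal from the 2 genomes could not be told apart. Of the 61 probe sets, 13 carry a suffix for probes shared by several transcripts, among them nad6, ATMG00513 (nad5), rpl16 and mttB.

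Arrays of the same group differed in their overall mitochondrial level, given here as the mean of log2(signal + 16) over the 61 members. At 0 h replicates 1, 3 and 5 had 5.58, 6.02 and 7.69. The 8 treated arrays lay between 7.23 and 8.45, so replicate 5 at 0 h overlapped them. The jkd QC arrays had 8.65 to 9.04, the wild type QC arrays grown with them 8.50 to 9.46 and the separate QC arrays 7.94 to 8.26. The jkd meristems had 5.94 to 6.0 and the wild type meristems 5.80 to 5.83. Of the 61 members, 58 were higher in 0 h replicate 5 than in both other 0 h arrays, against 49.6% of all probe sets. At 24 h, 58 were higher in replicate 3 than in replicate 2, against 51.4% of all. At 48 h it was 2 of 61, against 50.4%. In the wild type QC grown with jkd, 51 of 61 were highest in replicate 2, against 41.2% of all. Most members thus moved with their array, and they are not independent of each other.

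**Figure D1:**
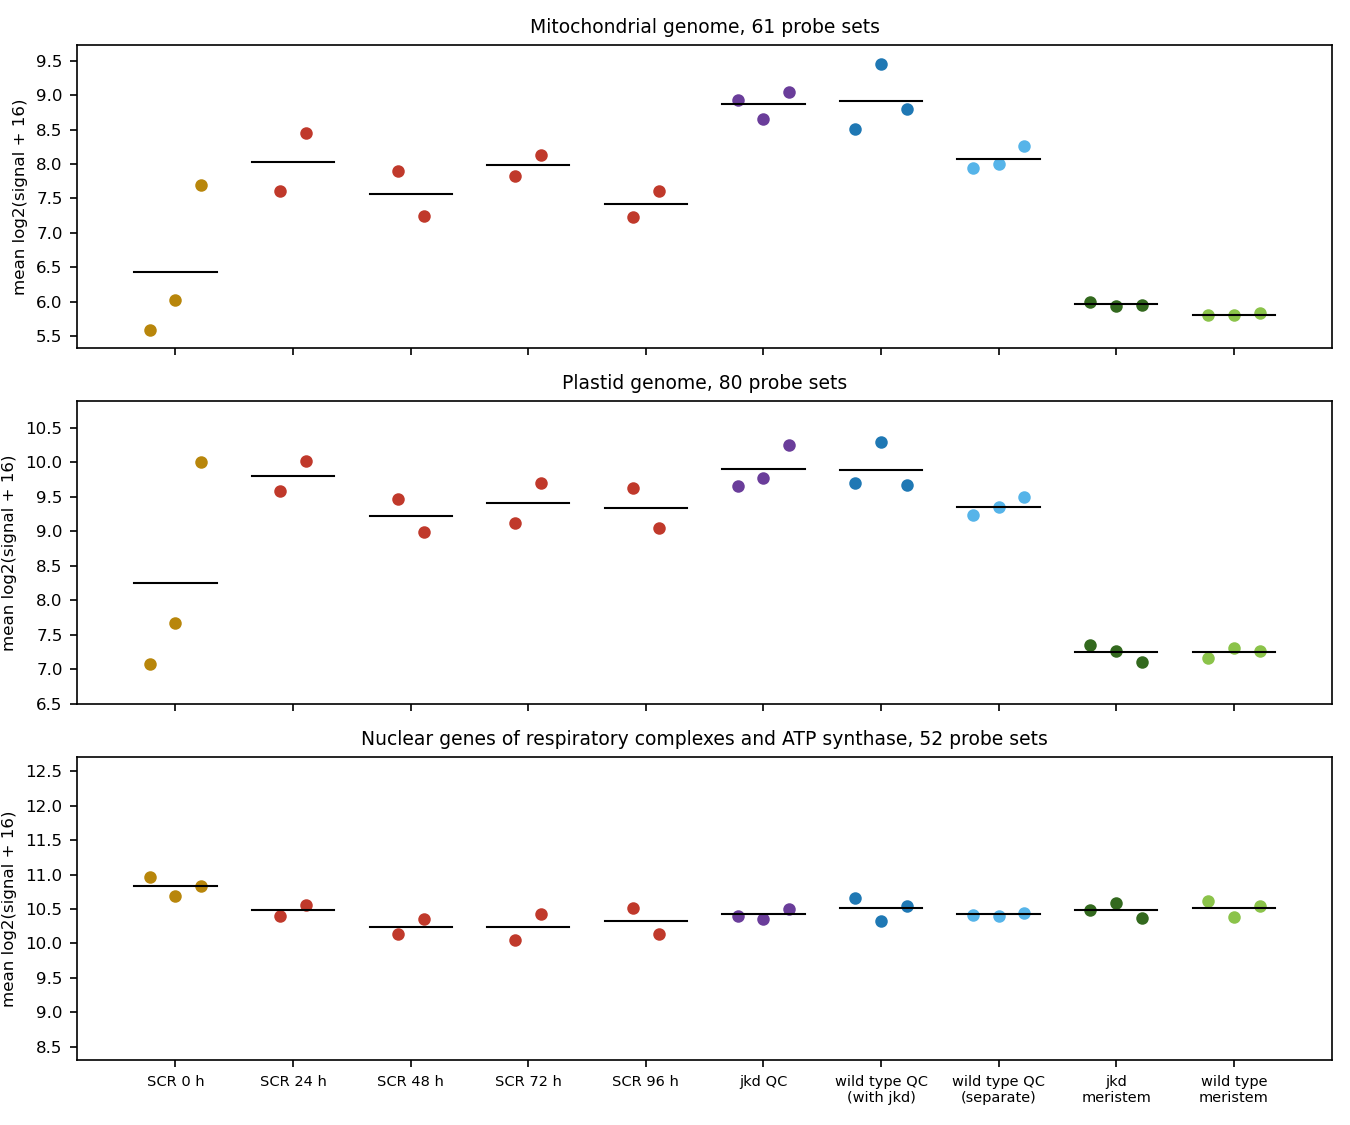
Mean log2(signal + 16) on each array (points) and the mean of each group (lines) for 61 mitochondrial probe sets, 80 plastid probe sets and 52 nuclear probe sets of the respiratory complexes and ATP synthase. The 3 vertical axes span the same range. Mitochondrial means run from 5.58 in 0 h replicate 1 to 9.46 in wild type QC replicate 2, while nuclear means stay between 10.05 and 10.97.

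The members took 0.0653%, 0.117% and 0.325% of the summed signal of the 0 h arrays, 0.510% to 1.26% in the treated arrays, 1.22% to 1.53% in the jkd QC, 1.34% to 1.87% in the wild type QC grown with jkd, 0.849% to 1.01% in the separate QC, and 0.135% to 0.175% in the 6 meristem arrays. Plastid probe sets followed a like pattern in their group means. These were 8.25 at 0 h, 9.80 at 24 h, 9.36 in the separate QC and 7.25 in the wild type meristem. The plastid means of 0 h replicates 1, 3 and 5 were 7.08, 7.67 and 10.01. Those of the treated arrays ran from 8.99 to 10.02, so replicate 5 lay near their top. In bulk RNA, a smaller share of cells of one type and less of a transcript per cell cannot be told apart. The sorted populations also changed in their markers. The summed signal of 7 endodermis markers was 14479 to 24484 at 0 h, 3652 to 4234 at 24 h and 1115 to 1640 at 96 h. All 7 were above the array median in each 0 h array, and 3 or 4 at 96 h. The 7 did not move alike. SCR, which is counted among them, averaged 519 at 0 h, 627 at 24 h and 869 at 96 h. MYB36 averaged 968, 1305 and 180 at these times. CASP2, CASP4, CASP5, PER64 and SGN3 had lower means at 24 h than at 0 h. The 6 QC markers summed to 269 to 416 at 0 h, 518 to 658 at 24 h and 2530 to 3820 at 96 h. At 24 h the means of BBM, ERF115 and MYB56 were above 0 h, while those of PLT1, TEL1 and AGL42 were not. The part of these marker shifts in the mitochondrial values was not tested. JKD averaged 10.9 in jkd QC and 83.8 in the wild type QC grown with it, and 10.3 in jkd meristems and 186 in wild type meristems. The free-text descriptions of the jkd arrays go against their titles, so genotype was read from titles and source names.

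After 24 h of 2,4-D most mitochondrial probe sets of the respiratory chain and ATP synthase, though not nad4, stood above 0 h, while rpl16 was lower. Of the 61 members, 58 passed the filter on low signal; 25 rose and 3 fell at an adjusted p under 0.05 (limma, Benjamini-Hochberg over all probe sets tested), where 48.1% of all tested probe sets passed, 20.7% higher and 27.5% lower. The median log2 change of the 58 was 1.43, against -0.22 for all probe sets tested. Without the filter the median of all 61 was 1.40. Of 80 plastid probe sets tested, 34 rose and 4 fell, with a median of 1.70. Of the 10 probe sets of respiratory complexes and ATP synthase, 8 rose and none fell, with a median of 3.79. Of the 45 tested open reading frames, 16 rose and 2 fell, with a median of 1.25. Centring each array on its nuclear median, which takes out the shift of all probe sets, gave 34 higher and 0 lower. Without 0 h replicate 5, the array with the highest mitochondrial signal of its group, 41 rose and 0 fell. For counts under changed settings, here and below, the share of all probe sets was not computed. The 0 h arrays also differed in the summed signal of 13 nuclear probe sets of the mitochondrial stress response. It was 10010 and 12083 in replicates 1 and 3 and 5327 in replicate 5. Of the 13, 3 were highest in replicate 5, where 49.6% of all probe sets were. A few strong genes weigh heavily in the sum. AOX1A had 3156, 3449 and 1822 in replicates 1, 3 and 5, and AT5G51440 had 1925, 2452 and 118. HSP23.6-MITO, a small heat shock protein of the mitochondrion, had 890 and 2157 in replicates 1 and 3 and 13.9 in replicate 5. The part of this difference in the mitochondrial values was not tested.

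The strongest change among named members was in complex I and ATP synthase. The probe set ATMG00513 (nad5) covers part of the trans-spliced nad5 gene, a proton-pumping subunit of complex I. Its signal was 12488 and 13324 at 24 h, against 8.7, 99.5 and 547 at 0 h. The 0 h arrays were far apart, yet all lay below every treated array. The log2 change was 6.78 ± 1.03 (standard error, adjusted p = 0.000891 by limma). The other nad5 probe set, ATMG00060, had 1416 and 1617 at 24 h, against 5.2, 68.3 and 157 at 0 h, a change of 4.50 ± 0.70 (limma adjusted p = 0.000573). ATMG00640 (atp4), a subunit of the peripheral stalk of ATP synthase, had 4869 and 6775 at 24 h, against 50.9, 47.2 and 149 at 0 h. Its change of 6.02 ± 0.39 (limma adjusted p = 3.31e-07) had the smallest adjusted p of the 13 named members.

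Other subunits of complex I rose as well. ATMG00650 (nad4L), a small membrane subunit, had 1147 and 1633 at 24 h, against 17.5, 66.3 and 181 at 0 h, a log2 change of 4.08 ± 0.58. ATMG00070 (nad9), a subunit of the peripheral arm, had 1007 and 1564, against 44.1, 103 and 183 at 0 h, a change of 3.5 ± 0.51. ATMG00510 (nad7), of the same arm, was weak everywhere, with 78 and 97.6 at 24 h against 7.8, 13.7 and 9.6 at 0 h, and rose by 1.98 ± 0.39. ATMG00270 (nad6), a membrane subunit, had 634 and 787 at 24 h, against 55.2, 332 and 525 at 0 h, and did not pass the test (1.61 ± 0.67, limma adjusted p = 0.0712). ATMG00580 (nad4), a membrane subunit, had 322 and 688 at 24 h, against 406, 524 and 1253 at 0 h, with overlapping groups and a change of -0.44 ± 0.46. Both probe sets of complex IV rose. ATMG00160 (cox2), which receives electrons from cytochrome c, had 1176 and 1415 at 24 h, against 10.4 to 214 in the 3 arrays at 0 h, a change of 4.48 ± 0.78. ATMG01360 (cox1), the catalytic subunit, had 1991 and 2497, against 278, 853 and 1100 at 0 h, a change of 1.77 ± 0.55. The call for cox1 was lost when either 24 h array was left out.

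**Figure D2:**
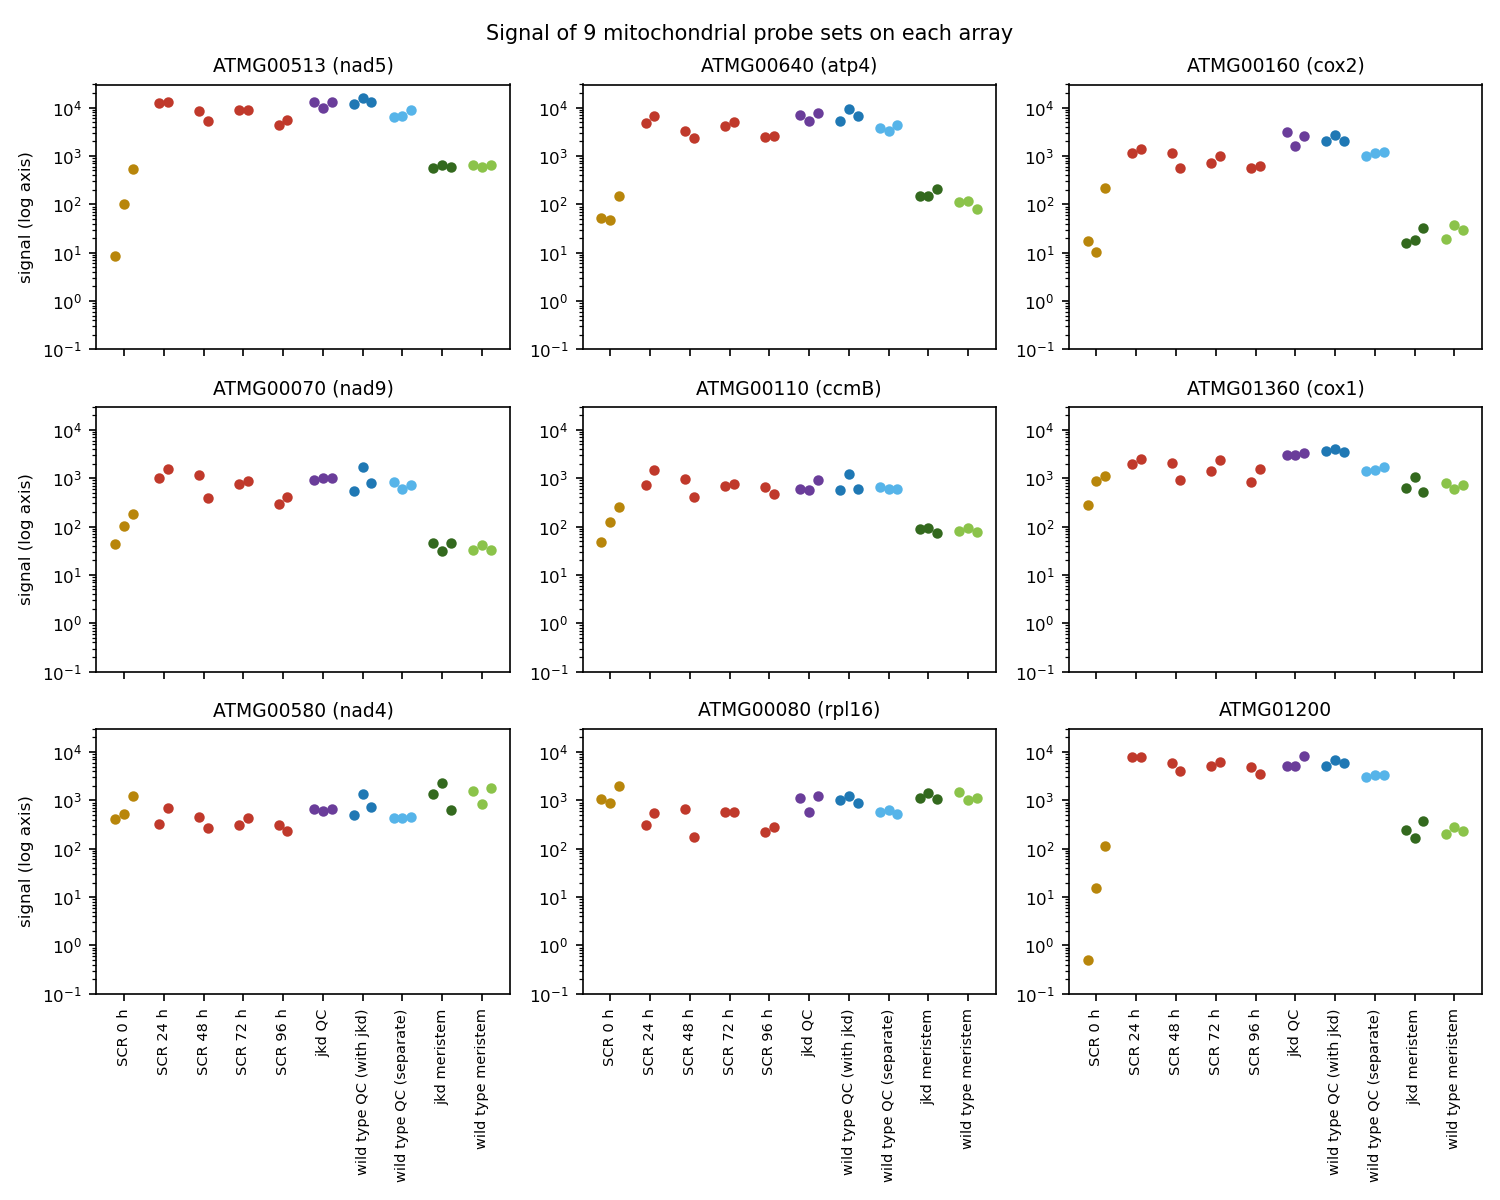
Signal of 9 mitochondrial probe sets on each array, on a log axis, with a point for each array and the groups in columns. Signal of nad5 (ATMG00513), atp4, cox2, nad9, ccmB and ATMG01200 is low at 0 h and in the meristems, while nad4 and rpl16 are not low there.

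Cytochrome c maturation and the ribosome, with 1 probe set each, gave opposite values. ATMG00110 (ccmB), a membrane protein of the cytochrome c maturation system, had 728 and 1470 at 24 h, against 47.6, 122 and 252 at 0 h, a log2 change of 2.98 ± 0.55 (limma adjusted p = 0.00106). ATMG00080 (rpl16), a protein of the large ribosomal subunit, had 309 and 560 at 24 h, against 1055, 890 and 2000 at 0 h, and every treated array lay below every 0 h array. It fell by 1.53 on the log2 scale (standard error 0.50, limma adjusted p = 0.0229). That call was lost without 0 h replicate 5 (-1.19), without 24 h replicate 2 (-1.12) and with nuclear median centring (-1.03), but the value stayed below 0 in each. ATMG00570 (mttB), a component of the twin-arginine transport system, had 164 and 419 at 24 h, against 178, 286 and 758 at 0 h, and the groups overlapped.

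Among the open reading frames ATMG01200 changed most. It had 7878 and 7784 at 24 h, against 0.5, 15.1 and 112 at 0 h. The log2 change was 7.60 ± 0.66 (limma adjusted p = 1.49e-05), on the log2(signal + 16) scale, which understates changes of weak signals. ATMG00040 had 10390 and 14076 at 24 h, against 141, 605 and 1460 at 0 h, a change of 4.53 ± 0.76. ATMG00400 had 2071 and 3572, against 47.2, 76.5 and 345 at 0 h, a change of 4.42 ± 0.62. ATMG01290 and ATMG01230 fell, by 1.92 and 1.75 on the log2 scale. ATMG01290 had 22.3 and 45.0 at 24 h, against 64.8, 103 and 620 at 0 h. Both calls were fragile, lost in 9 of 11 left-out arrays for ATMG01290 (0 h replicate 5 gave -1.02) and in 6 of 10 for ATMG01230.

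The later times gave values of the same order, and they share the 0 h arrays with the 24 h comparison. At 48 h 24 of 58 members rose and 3 fell, where 49% of all tested probe sets passed, 21.8% higher and 27.2% lower. At 72 h 28 rose and 2 fell, where 49.3% of all passed, 23% higher and 26.4% lower. At 96 h 23 rose and 5 fell, where 52.4% of all passed, 24.7% higher and 27.7% lower. The medians were 1.04, 1.42 and 0.94 at 48, 72 and 96 h. At 0, 24, 48, 72 and 96 h the mean signals of atp4 were 82.3, 5822, 2780, 4590 and 2506. ATMG00513 (nad5) had 8406 and 5342 at 48 h, 9048 and 8750 at 72 h and 4438 and 5411 at 96 h. cox2 had 1159 and 556 at 48 h, 714 and 1001 at 72 h and 572 and 606 at 96 h. For both, every treated array lay above every 0 h array. ccmB had 981 and 416, 675 and 773, and 663 and 473 at 48, 72 and 96 h. rpl16 had 670 and 173, 565 and 572, and 225 and 286 at these times, below all 0 h arrays. The change of atp4 against 0 h was 4.96 ± 0.39 at 48 h, 5.69 ± 0.39 at 72 h and 4.83 ± 0.39 at 96 h. ATMG01200 differed from 0 h by 6.93, 7.12 and 6.67 at these times. The calls that fell at 96 h were rpl16 (-2.21 ± 0.50), nad4 (-1.22 ± 0.46), ATMG00680, ATMG01230 and ATMG01290. At 48 h the count was 42 without 0 h replicate 5 and 14 without 48 h replicate 2. At 96 h it was 18 without either 96 h array. The nad4 call was lost in 5 of 11 left-out arrays.

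Over the 8 treated arrays and the 3 arrays at 0 h, 20 of the 61 members were higher in every treated array and 5 lower in every one, against 15% and 28% of all probe sets. Of the 13 named members 8 were higher and 1, rpl16, was lower. Between 96 h and 24 h no member passed (limma, 0 of 58 at an adjusted p under 0.05, 4 at an unadjusted p under 0.05, and 0 with the plain eBayes fit), where 3.86% of all tested probe sets did, 1.97% higher and 1.89% lower. The median change was -0.56, and 54 of 58 values were below 0. Shares of all probe sets given beside counts at an unadjusted p, here and below, are those at the adjusted p. atp4 had 2453 and 2559 at 96 h, against 4869 and 6775 at 24 h, a change of -1.19 ± 0.43 (limma adjusted p = 0.158). nad9 had 296 and 405 at 96 h, against 1007 and 1564 at 24 h, the lowest value of the named members at -1.81 ± 0.56 (limma adjusted p = 0.102). Without 0 h replicate 5 or replicate 1, 3 and 1 members passed.

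Set against the separate QC harvest, the 0 h cells were low in most members, while at 96 h 1 member passed the test. The SCR and QC cells were sorted with different promoters from seedlings of different age. The 96 h cells had also been treated with 2,4-D. Cell type, line, age and treatment cannot be told apart in these comparisons. At 0 h, 35 of the 57 tested members were lower and 3 higher than in the QC, where 51.3% of all tested probe sets passed, 25.5% higher and 25.7% lower. The median was -1.80, and 44 passed without 0 h replicate 5. The complex I, complex IV and ATP synthase probe sets were lower in 8 of 10 cases. atp4 had 50.9, 47.2 and 149 at 0 h, against 3696, 3255 and 4318 in the separate QC, a log2 difference of -5.40 ± 0.32 (limma adjusted p = 6.59e-09). The open reading frames with the lowest values were ATMG01200 (-6.34), ATMG00690 (-4.46) and ATMG00040 (-4.09). The 3 that were higher at 0 h were rpl16 (1.10 ± 0.40), ATMG01230 (1.56 ± 0.55) and ATMG01290 (2.06 ± 0.56). The rpl16 call was lost without 0 h replicate 5 (0.76) and without each of the 3 separate QC arrays (1.03 to 1.17). The ATMG01230 call was lost without separate QC replicate 3 (1.33), with quantile normalization (1.46) and with a pseudocount of 1 (2.12). Of the 61 members 29 were lower in every 0 h array than in every QC array and 5 were higher, against 22.5% and 31.7% of all probe sets. Of 80 plastid probe sets tested against the separate QC, 35 were lower and 6 higher at 0 h, and 1 was lower at 96 h. At 96 h 1 of 57, ATMG01400, differed from the separate QC, where 30.3% of all tested probe sets did, 13.8% higher and 16.5% lower. It had 36.9 and 52.1 at 96 h, against 212, 173 and 190 in the separate QC, a difference of -1.79 ± 0.47 (limma adjusted p = 0.00884), lost without 96 h replicate 2. The median over the 57 was -0.67, and 54 of them were below 0. At an unadjusted p under 0.05 there were 11, and between 0 and 15 members passed when 1 array was left out, 15 without 0 h replicate 5, 5 without 0 h replicate 1, 4 without 96 h replicate 3, 3 without either 24 h array, 2 without each 48 h or 72 h array and 0 without 96 h replicate 2.

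The separate QC held far more mitochondrial signal than the whole wild type meristem for nearly all members. Of 53 tested, 47 were higher and 3 lower (limma), where 58.3% of all tested probe sets passed, 27% higher and 31.3% lower. The median log2 difference was 2.2, and over all 61 without the filter it was 2.11. Plastid probe sets differed in the same direction, with 70 of 78 tested higher and 2 lower, and a median of 1.92. Sorted cells and unsorted tissue were compared here, so sorting and cell type cannot be told apart. Values also carry 1 decimal in the separate QC and 2 in the meristems. A difference in harvest or data handling therefore cannot be told apart from these either. ATMG00060 (nad5) had 1127, 1042 and 1598 in the separate QC, against 11.8, 6.5 and 6.7 in the wild type meristem, a difference of 5.69 ± 0.21 (adjusted p = 1.83e-10, limma). atp4 had 3696, 3255 and 4318 in the QC, against 114, 118 and 78.9 in the meristem, a difference of 4.99 ± 0.18. cox2 had 1014, 1168 and 1212 in the QC, against 19.4, 36.6 and 28.9 in the meristem, a difference of 4.71 ± 0.20. No array of one group came near the other group for these 3 probe sets.

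Other named members differed less. nad9 was higher in the separate QC by 3.80 ± 0.20, ATMG00513 (nad5) by 3.48 ± 0.16, nad4L by 3.20 ± 0.19, nad6 by 2.99 ± 0.21, ccmB by 2.64 ± 0.18, mttB by 2.52 ± 0.24 and cox1 by 1.10 ± 0.16 on the log2 scale. nad7 did not pass the filter on low signal. nad4 had 425, 425 and 458 in the separate QC, against 1555, 836 and 1766 in the meristem, and was lower by 1.56 on the log2 scale (standard error 0.23, limma adjusted p = 4.53e-05). rpl16 had 571, 624 and 513 in the QC, against 1468, 1001 and 1133 in the meristem, a difference of -1.04 ± 0.17. With the QC arrays grown with jkd in place of the separate harvest, a setting added after the data had been seen, both differences shrank to -0.74 for nad4 and -0.20 for rpl16 and no longer passed. The open reading frame ATMG01100, the third of the lower calls, differed by -0.84 ± 0.22 with the separate harvest and by 0.29 in that setting. Among the open reading frames ATMG00690 differed most, with 3550, 4197 and 4619 in the QC, against 45.4, 55.2 and 37.0 in the meristem, a difference of 6.07 ± 0.18. ATMG00040 followed at 5.65 ± 0.17 and ATMG00400 at 5.29 ± 0.21. Groups did not overlap for 52 higher and 3 lower members of 61, where 28% and 25.5% of all probe sets did the same.

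**Figure D3:**
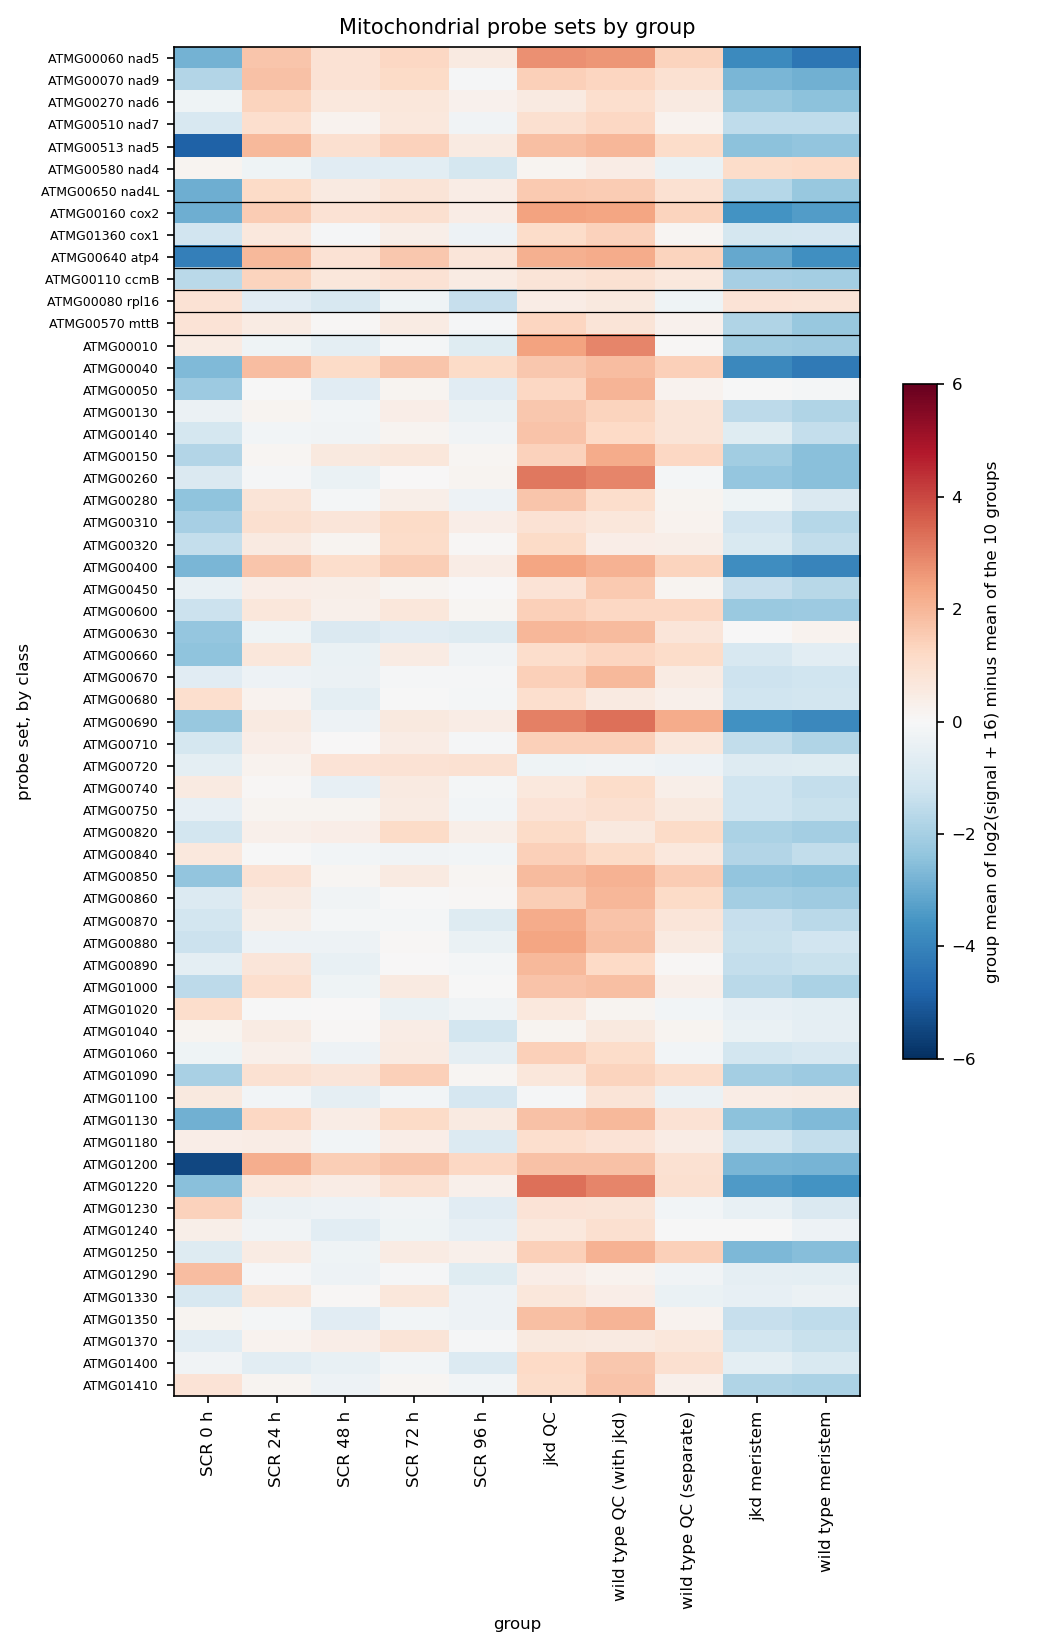
Group mean of log2(signal + 16) for each of the 61 probe sets minus the mean of the 10 groups, with classes separated by lines and groups in columns. Blue marks a low group and red a high one. Most rows are low at 0 h and in the meristems and high in the QC groups, while nad4, rpl16 and ATMG01100 are above 0 in both meristem groups.

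After subtracting each probe set's mean over the 26 arrays, the complex I, complex IV, ccmB and open reading frame means had the same sign in 22 arrays and not in the other 4. They were all below 0 in 0 h replicates 1 and 3 and in all 6 meristem arrays. In 0 h replicate 1 they were -3.06, -2.94, -2.56 and -1.69, while rpl16 was 0.50. In wild type QC replicate 2 they were 2.01, 2.14, 1.74 and 2.01, while rpl16 was 0.73. In 0 h replicate 5 complex I, complex IV and ccmB were -0.71, -0.58 and -0.48, while the open reading frames were 0.42. In 24 h replicate 2 they were 1.10, 1.02 and 0.99, against -0.06 for the open reading frames. The signs also differed in 48 h replicate 3 and in 96 h replicate 2. In the 8 treated arrays rpl16 ranged from -2.0 to -0.14 and was below 0 in each, and complex I was above 0 in each. The comparisons of 24 h with 0 h and of the separate QC with the wild type meristem share no arrays. Across the 61 members their log2 changes correlated at r = 0.669, as a description over probe sets that share their arrays. No correlation over all probe sets was computed. Of the 61, 46 were above 0 at 24 h against 0 h, 57 in the separate QC against the meristem, and 45 in both. With 46 and 57 of 61, most of the 46 had to be above 0 in both.

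**Figure D4:**
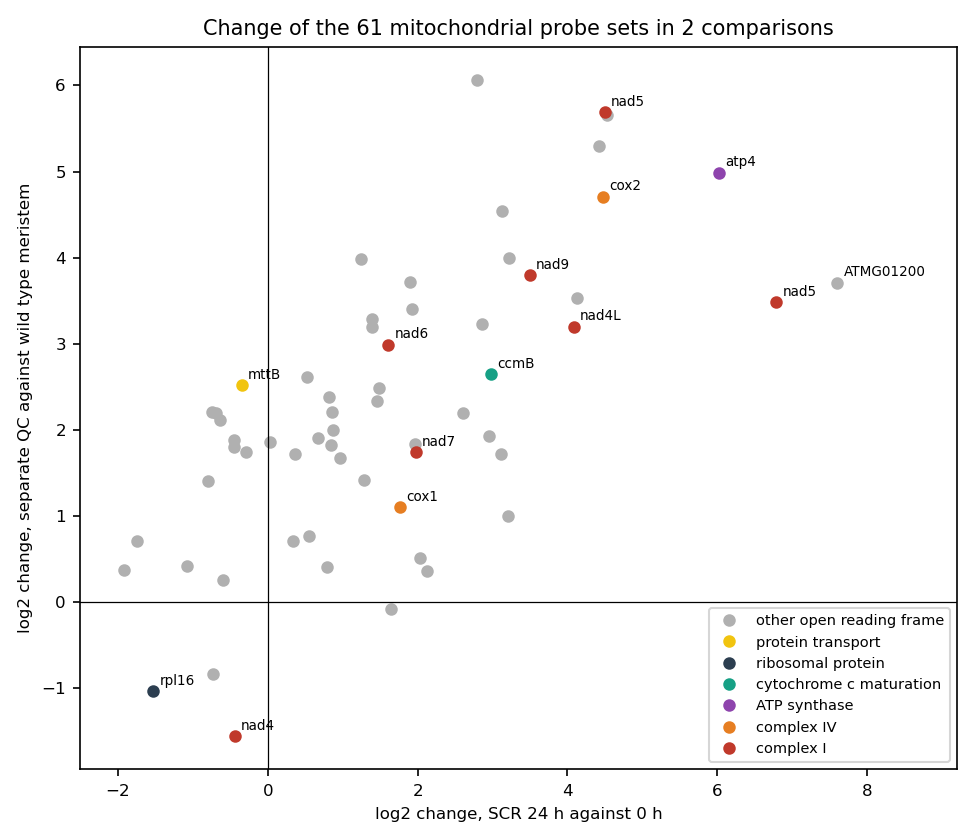
Log2 change of the 61 probe sets between 24 h and 0 h (horizontal) and between the separate QC and the wild type meristem (vertical), without the filter on low signal, with class in colour. atp4 lies at 6.02 and 4.99, ATMG01200 at 7.60 and 3.71, and rpl16 at -1.53 and -1.04.

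The 2 wild type QC harvests differed from each other as well. They also differed in the summed signal of cell type markers. The 7 endodermis markers summed to 1167 to 1657 in the QC grown with jkd, against 2469 to 3497 in the separate QC, with 6 and 7 of them above the array median. SCR, 1 of the 7, was not lower, with means of 256 and 249. The 2 root cap markers summed to 218 to 318, against 515 to 715 in the separate QC. The sum of the 6 QC markers was lower as well, with 1057 to 1592, against 1734.5 to 2227 in the separate QC. These markers did not move alike. PLT1, BBM and TEL1 had lower means than in the separate QC, and MYB56 averaged 239, against 244. AGL42 averaged 154, against 83.3, and ERF115 234, against 92.3, so these were higher. The sum of the 3 stele markers was higher, with 244.5 to 364, against 184 to 223 in the separate QC. The 3 markers of epidermis and root hairs overlapped, with 1302 to 2840, against 1579 to 1729. The part of these differences in the mitochondrial values was not tested. In the QC grown with jkd, 23 of 58 tested members were higher and 0 lower than in the separate harvest (limma), where 23.1% of all tested probe sets passed, 10.1% higher and 13% lower. The median was 0.85, and 56 of 58 values were above 0. Of 78 plastid probe sets tested, 30 were higher and 1 lower, with a median of 0.45. cox1 had 3626, 4091 and 3544 in the QC grown with jkd, against 1408, 1487 and 1718 in the separate QC, a difference of 1.28 ± 0.18 (limma adjusted p = 0.000329). Both groups were tight and did not overlap. The open reading frame ATMG00260 had 583, 2388 and 991, against 114, 95.1 and 166 in the separate QC, a difference of 3.04 ± 0.41. ATMG00010 differed by 2.88 ± 0.37 and ATMG01220 by 1.96 ± 0.34. Among named members ATMG00060 (nad5) differed by 1.28 ± 0.23, cox2 by 1.00 ± 0.20, atp4 by 0.90 ± 0.21, ATMG00513 (nad5) by 0.87 ± 0.17, rpl16 by 0.84 ± 0.22 and nad4L by 0.58 ± 0.20. With quantile normalization ATMG00513 differed by 0.20 and atp4 by 0.36, and neither passed. The atp4 call was also lost with plain eBayes and without separate QC replicate 2 (0.80). The nad4L call was lost in 5 of 6 left-out arrays, all but wild type QC replicate 3, and with plain eBayes, a pseudocount of 1 or no filter. The rpl16 call was lost without each separate QC array (0.77 to 0.91). nad9 (0.34 ± 0.34) and ccmB (0.29 ± 0.28) did not pass. Groups did not overlap for 31 members that were higher and 0 that were lower, where 15.1% and 17.1% of all probe sets did the same. Without wild type QC replicate 2, 21 were higher and 1 lower, with a median of 0.54. The count was 15 without separate QC replicate 1 and 14 without replicate 2. Values carry 2 decimals in the QC grown with jkd and the meristems and 1 decimal in the separate QC and the time series. The part of this difference in the values was not tested.

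Between jkd and wild type no member passed in either tissue. In the QC 0 of 59 tested members passed (limma, 1 at an unadjusted p under 0.05, and 0 with the plain eBayes fit), where 0.105% of all tested probe sets did, 0.0872% higher and 0.0174% lower. In the meristem 0 of 34 passed (7 at an unadjusted p under 0.05, and 0 with the plain eBayes fit), where 0.933% of all did, 0.776% higher and 0.157% lower. The jkd effect in the QC minus that in the meristem passed for 0 of 59, with none at an unadjusted p under 0.05 and 0 with the plain eBayes fit, where 0% of all tested probe sets passed. atp4 had 7065, 5358 and 7601 in jkd QC, against 5381, 9475 and 6664 in the wild type QC grown with it, a difference of -0.08 ± 0.25. In the meristem it had 147, 146 and 210 in jkd, against 114, 118 and 78.9 in wild type, a difference of 0.62 ± 0.22 (limma adjusted p = 0.366). nad4L differed by 0.04 ± 0.27 in the QC and by 0.55 ± 0.25 in the meristem, and ATMG01200 by 0.02 ± 0.24 and 0.09 ± 0.26. The median over the tested members was -0.08 in the QC and 0.17 in the meristem. In the QC it turned to 0.15 without wild type replicate 2, which held the highest mitochondrial signal of its group, and to 0.14 with nuclear median centring. The atp4 value in the meristem did not pass at a standard error of 0.22, so a difference of that size can go uncalled here.

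Of the 51 tested nuclear genes of the respiratory complexes and ATP synthase, 12 were higher and 21 lower at 24 h than at 0 h, with a median of -0.48, where 20.7% of all tested probe sets were higher and 27.5% lower. At 96 h it was 8 higher and 27 lower, with a median of -0.93, where 24.7% of all were higher and 27.7% lower. In the separate QC against the wild type meristem, 13 were higher and 22 lower, with a median of -0.17, where 27% of all were higher and 31.3% lower. The counts of higher genes at 24 h and in the QC were close to these shares. CYTC-2, which encodes cytochrome c, fell by 2.18 on the log2 scale at 24 h (limma adjusted p = 0.000306), and AT2G33220, listed as a complex I subunit, rose by 2.37. The mean log2 level of 52 nuclear probe sets stayed between 10.05 and 10.97 on all 26 arrays. Of 5 nuclear genes for mitochondrial ribosomal proteins, 1 rose and 3 fell at 24 h, where 20.7% of all tested probe sets rose and 27.5% fell. In the separate QC 4 of 5 were lower than in the meristem, where 31.3% of all were, among them RPS19 (-2.02 ± 0.21) and RPS10 (-1.73 ± 0.19).

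**Figure D5:**
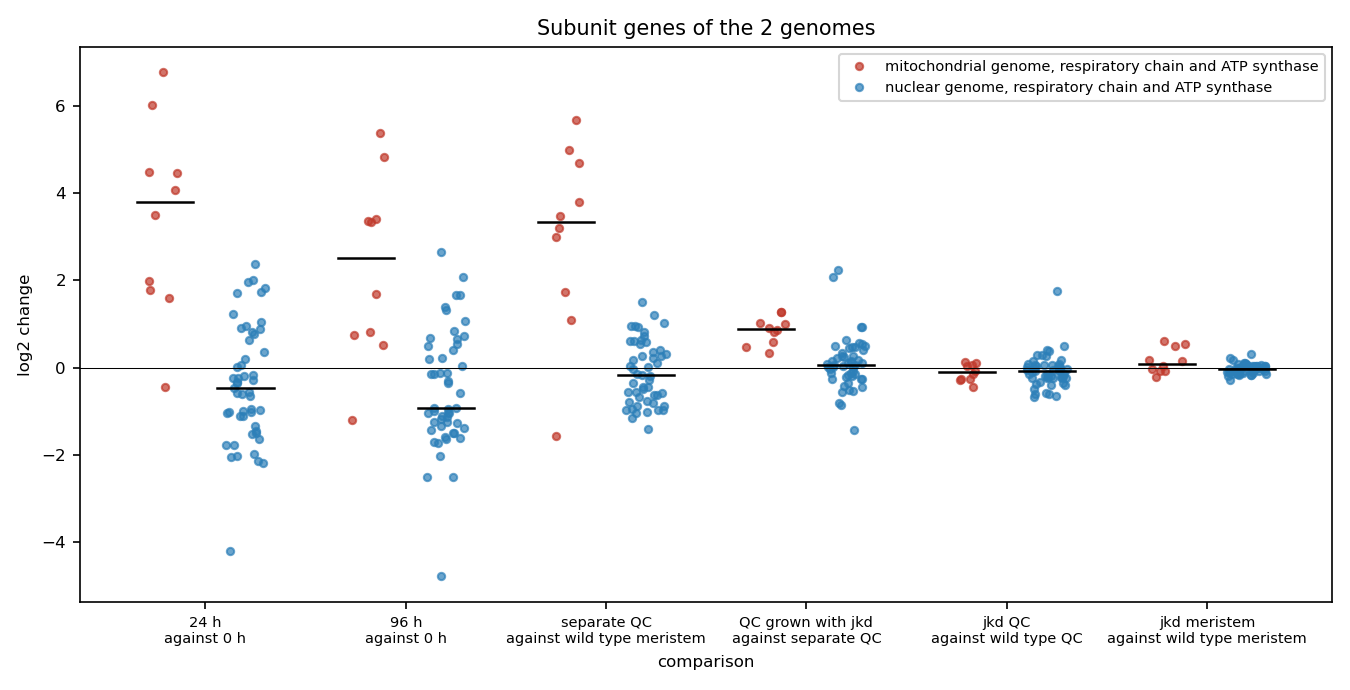
Log2 change of the 10 mitochondrial (red) and 51 nuclear (blue) probe sets of the respiratory chain and ATP synthase in 6 comparisons, with points for probe sets and lines for medians. The mitochondrial values are given without the filter on low signal and the nuclear values are those tested. At 24 h the medians are 3.79 and -0.48.

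Of 16 tested genes of RNA metabolism in the organelle, 2 rose and 1 fell at 24 h, where 20.7% of all tested probe sets rose and 27.5% fell. Of the same 16, 5 were higher and 2 lower at 0 h than in the separate QC, where 25.5% and 25.7% of all were. SHOT1, of the mitochondrial transcription termination factor family, rose by 1.91 ± 0.34 on the log2 scale, PMH2, an RNA helicase, rose by 1.49 ± 0.34, and nMAT1, a maturase for intron splicing, fell by 1.60. POLGAMMA2, an organellar DNA polymerase, and MSH1, which guards against recombination of organellar DNA, were not called at 24 h. They were higher at 96 h by 2.65 ± 0.52 and 2.05 ± 0.54, and were 2 of 3 genome upkeep genes tested, where 24.7% of all were higher. Of 9 tested genes that answer mitochondrial stress, 1 rose and 1 fell at 24 h, and 1 rose and 3 fell at 96 h, where 20.7% and 27.5% of all tested probe sets rose and fell at 24 h and 24.7% and 27.7% at 96 h. AOX1A, the alternative oxidase that bypasses cytochrome c, fell by 1.39 at 96 h. It was higher by 1.94 ± 0.28 at 0 h than in the separate QC. Of 7 such genes tested in the separate QC against the meristem, 6 were higher and 0 lower, where 27% and 31.3% of all were, and HSP23.6-MITO was higher by 2.52 ± 0.24.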

How the data were processed

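The authors deposited 1 signal intensity per probe set and array, made with MAS5 per the submitters' processing notes, with version and scaling target not given in the sources used here. Detection calls were not used. Locus codes came from the deposited matrix. The intensities were taken as log2(intensity + 16), with no further normalization. limma 3.58.1 (R 4.3.3; lmFit, eBayes, trend and robust options on) was fitted to the 11 arrays of the times, 14 with the separate QC, 6 for each pair of groups and 12 for the interaction. The filter kept probe sets whose mean reached the 30th percentile, 11469 per fit, and Benjamini-Hochberg adjustment ran over them. A call is an adjusted p under 0.05; ± marks a standard error. No label says that arrays of a group came from separate plants, so p-values cover the spread among arrays only, possibly technical. Fits were run on simulated data with noise drawn separately for each probe set. Members that move together with their array were not simulated. Text names every annotated member, ATMG01200, the 3 highest and 3 lowest called open reading frames of a comparison and any called against the majority, and up to 2 called nuclear genes per list and direction. The members and lists were chosen with earlier results of these data known, ATMG01200 among them. Replicate numbers did not meet the rule for pairing (each same-numbered correlation over 0.1). Python 3.11.15 and matplotlib 3.10.9 made the figures.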

Additional observations from a re-analysis of the deposited data

How the results depend on the processing

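Alternatives were a pseudocount of 1 or 64, a filter at the 50th percentile or none, quantile normalization, nuclear median centring, plain eBayes, 1 fit of all 26 arrays, a replicate block, and leaving out each array. A setting with the QC arrays grown with jkd in place of the separate harvest was chosen after seeing the data. Single members were followed through the settings only where the naming rule picks them, which takes open reading frames with the largest changes. These were 202 results, of which 110 were called. Of the 110 calls, 80 kept direction and threshold under every setting other than leaving out an array, and 70 under all settings. The remaining calls of open reading frames were not followed in this way. For 96 h against 24 h, 2 members passed with 1 fit of all arrays and 6 with the replicate block. For 96 h against the separate QC, 2 passed with quantile normalization, 5 with a pseudocount of 64, 2 with plain eBayes, 6 with 1 fit of all arrays and 18 with the replicate block. For the separate QC against the wild type meristem the 50th percentile filter gave 28 calls, since it left 29 members to test. For the QC grown with jkd against the separate QC, 1 fit of all arrays gave 11. ATMG01100 changed sign to 0.29 with the other QC harvest. Leaving out 1 array gave 20 to 41 calls at 24 h, 14 to 42 at 48 h, 21 to 42 at 72 h and 18 to 35 at 96 h against 0 h, 0 to 3 for 96 h against 24 h, 28 to 44 for 0 h and 0 to 15 for 96 h against the separate QC, 48 to 50 for the separate QC against the meristem, 14 to 31 between the QC harvests and 0 in each jkd comparison. Where a count moved, the cause was not tested, other than for the stricter filter. Replicate numbers were not taken to pair arrays, since not every correlation of same-numbered deviations was over 0.1: they ran from -0.037 to 0.047 between jkd and wild type QC, where 2 of 6 arrays correlated best with their own number, from -0.11 to -0.044 in the meristem, and from -0.03 to 0.177 between treated times (0.177 for 48 h with 24 h, 0.122 for 96 h with 24 h, 0.084 for 72 h with 24 h). With the block 37 members passed at 24 h against 0 h, against 28 without it. MAS5 detection calls were not used, so weak signals have no stated limit of detection.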

Other observations

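The open reading frame ATMG00720 was weak in every array, with 1.7, 2.6 and 8.8 at 0 h, 4.1 and 44.2 at 24 h, and 23.7 to 59.9 in the 6 arrays of 48, 72 and 96 h. Its 6 later values lay above all 0 h values.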
